A study of Solanum lycopersicum with 27 samples.

Results

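The genes that encode the small subunit of Rubisco were followed through fruit ripening in wild-type and mutant tomato. They were taken as the 4 rows of the expression table with the identifiers Solyc02g063150, Solyc02g085950, Solyc03g034220 and Solyc07g017950, out of 34075 genes. The identification as Rubisco small subunit genes comes with this choice of identifiers. The table itself carries no gene names, and 0 of its identifiers were found in the RefSeq gene table used here (assembly SLM_r2.1). That table lists 4 genes with RBCS names, 3 on chromosome 2 and 1 on chromosome 3, but does not pair any of them with a row. Only Solyc02g063150 and Solyc02g085950 carry identifiers of chromosome 2, so an RBCS gene may lie outside the 4 rows. Sums and shares below refer to these 4 rows, not to all small subunit transcripts. The RefSeq table names none on chromosome 7, the chromosome in the identifier of Solyc07g017950. The identity of that row as a small subunit gene was therefore not checked, and counts and medians over the 4 genes include it.

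Total RNA of fruits was sequenced from untreated tomato (Solanum lycopersicum) of the cultivar Ailsa Craig, in 9 groups of 3 libraries. Fruits of 25 and 34 days post anthesis (dpa) represent the wild type (WT), the mutant dml2-3 and a double mutant, rin/tdr4-1. The other groups, all of 34 dpa, represent mutants in 1 gene each, namely nor-1, rin-1 and tdr4-1. By the labels 34 dpa is the breaker stage, when the first ripening colour shows in normal fruit. The genes behind these alleles act on ripening: DML2 removes DNA methylation, RIN and its relative TDR4 belong to the MADS-box factors, and NOR belongs to the NAC family of transcription factors. The labels do not give the lesion of any allele, the part of the fruit, the number of fruits in a library or whether replicates came from separate plants. P-values therefore measure only the spread between libraries, which may be technical.

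Rubisco is the enzyme that fixes CO2 in the Calvin cycle of chloroplasts. It is built from a large subunit encoded in the plastid genome and a small subunit encoded by a family of nuclear genes, the RBCS genes, whose products are imported into the plastid. Green tomato fruit holds chloroplasts, which turn into carotenoid-rich chromoplasts during ripening, and photosynthesis genes are known to be turned down at that time. The RBCS genes of tomato are also known to be used to unequal degrees in different organs. Members of such a family resemble each other closely, so that sequencing reads can be shared between them. How the authors' counting divided such reads is not given in the sources used here, and the level of each row is uncertain to that extent.

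Levels are given in FPKM, the number of fragments per kilobase of gene, scaled to the mapped fragments of the library, so that genes can be compared per length. The depth of the libraries is unknown, because FPKM keeps no read numbers. The FPKM columns summed to between 863193 and 1122755. Libraries of a group correlated across genes with r of at least 0.981 in 8 of the 9 groups. The exception was replicate 3 of dml2-3 at 25 dpa, with r of 0.917 and 0.916 to its group, and values without it are given for the comparisons and the order of levels that involve this group. The transcripts of the mutated genes were not identified, so they do not check the labels here.

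Before ripening, in WT fruit at 25 dpa, all 4 genes were expressed and Solyc03g034220 dominated. Its 3 libraries stood at 525.91, 488.84 and 468.68 FPKM. Solyc02g063150 followed at 106.38, 106.99 and 109.48 FPKM. Solyc02g085950 stood at 55.83, 64.81 and 69.17 FPKM, and Solyc07g017950 at 19.30, 15.71 and 13.49 FPKM. The ranges of the 4 genes did not overlap in this group. Together they reached 682 ± 23.7 FPKM (mean ± SD, n = 3), of which Solyc03g034220 supplied 72.5% ± 1.72, Solyc02g063150 15.8% ± 0.765, Solyc02g085950 9.31% ± 1.31 and Solyc07g017950 2.36% ± 0.345. Within a library of all 34075 genes, Solyc03g034220 held a rank between 200 and 243.

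**Figure D1:**
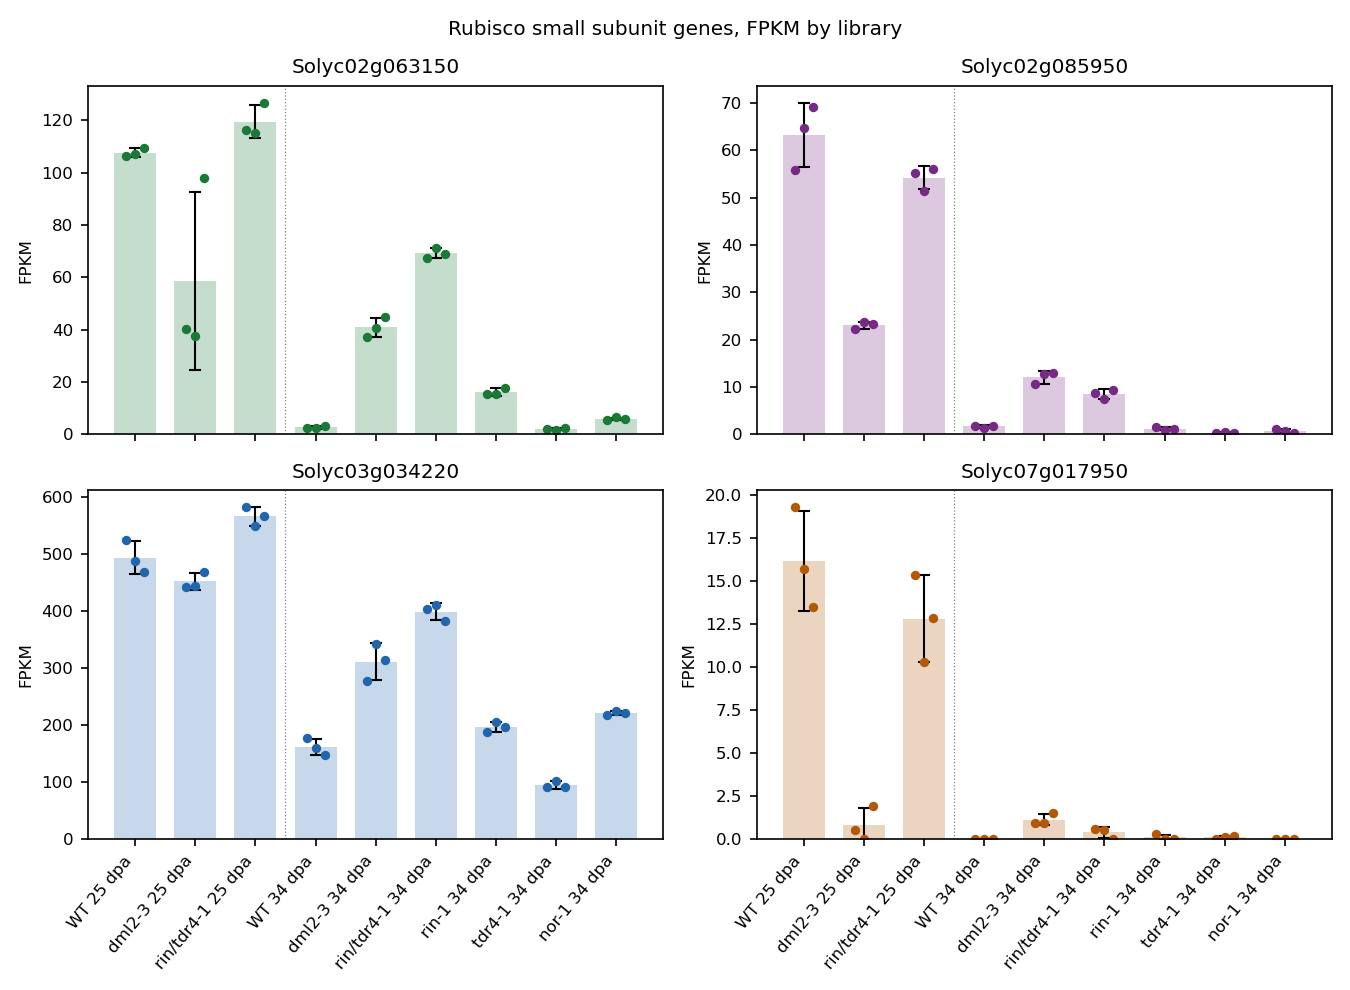
FPKM of each Rubisco small subunit gene in every library (points), with the group mean (bar) and SD (error bar, n = 3); each panel has its own linear axis from 0, and the dotted line parts 25 from 34 dpa. All 4 genes are lower in WT at 34 dpa than at 25 dpa, while dml2-3 and rin/tdr4-1 stand above WT at 34 dpa for Solyc02g063150, Solyc02g085950 and Solyc03g034220.

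Ripening of normal fruit was addressed by WT at 34 dpa against WT at 25 dpa, which also differ in age. All 4 genes fell, but to very unequal degrees. Solyc02g063150 dropped to 2.39, 2.48 and 3.23 FPKM, and its mean was 39.9-fold lower than at 25 dpa (log2 difference -4.88, SE 0.21, limma adjusted p = 6.11e-15). Solyc02g085950 dropped to 1.74, 1.42 and 1.85 FPKM, 37.9-fold lower (-4.59, SE 0.14, adjusted p = 1.27e-17). Solyc07g017950 was listed at 0 in all 3 libraries (-4.09, SE 0.26, adjusted p = 3.4e-12, and -7.33 with a pseudocount of 0.1), so no fold is given. It passed the filter on low values through WT and rin/tdr4-1 at 25 dpa, where it is high. The filter thus favours a lower call here, and the count and median of the 4 genes include it. Solyc03g034220 kept a level of 176.82, 159.96 and 148.06 FPKM, 3.06-fold lower (-1.61, SE 0.073, adjusted p = 1.4e-14). No library at 34 dpa overlapped with one at 25 dpa in any of the 4 genes.

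Log2 differences here and below are on the log2(FPKM + 1) scale, which understates changes near or below 1 FPKM, and p-values come from limma, adjusted by Benjamini-Hochberg over all genes tested. Of the 18906 genes tested, 61.7% were lower in WT at 34 dpa, so that a fall as such was common. The median of the 4 genes was -4.34, and the median of all genes -0.51. Division by size factors, which sets libraries to a common median gene, moved the median of all genes to -0.034. On that scale the difference was -1.02 for Solyc03g034220, -4.38 for Solyc02g063150, -4.12 for Solyc02g085950 and -3.86 for Solyc07g017950. In these bulk libraries, fewer cells that express a gene and less RNA per cell cannot be told apart.

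The make-up of the summed level of the 4 genes differed between both ages of WT. At 34 dpa in WT, Solyc03g034220 supplied 97.3% ± 0.571 of the summed level, which was 166 ± 14 FPKM. The share of Solyc02g063150 was 1.65% ± 0.411 and that of Solyc02g085950 was 1.01% ± 0.176. A share within a library does not depend on the scaling between libraries. The log2 ratio of Solyc03g034220 to the sum of the other genes was higher at 34 than at 25 dpa by 3.81 (SE 0.19), with no overlap between libraries (two-sided exact permutation test, p = 0.10, the smallest that 3 against 3 libraries can give). Of the 40 such tests of 1 gene against the rest that were run, 33 showed no overlap and reached this p. The Benjamini-Hochberg adjusted value was 0.121 at the lowest. A gene listed at 0 in a library compared was not tested, so Solyc07g017950 was tested only in rin/tdr4-1 against WT at 25 dpa. Shares within a library add up to a whole, so these tests are not independent.

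**Figure D2:**
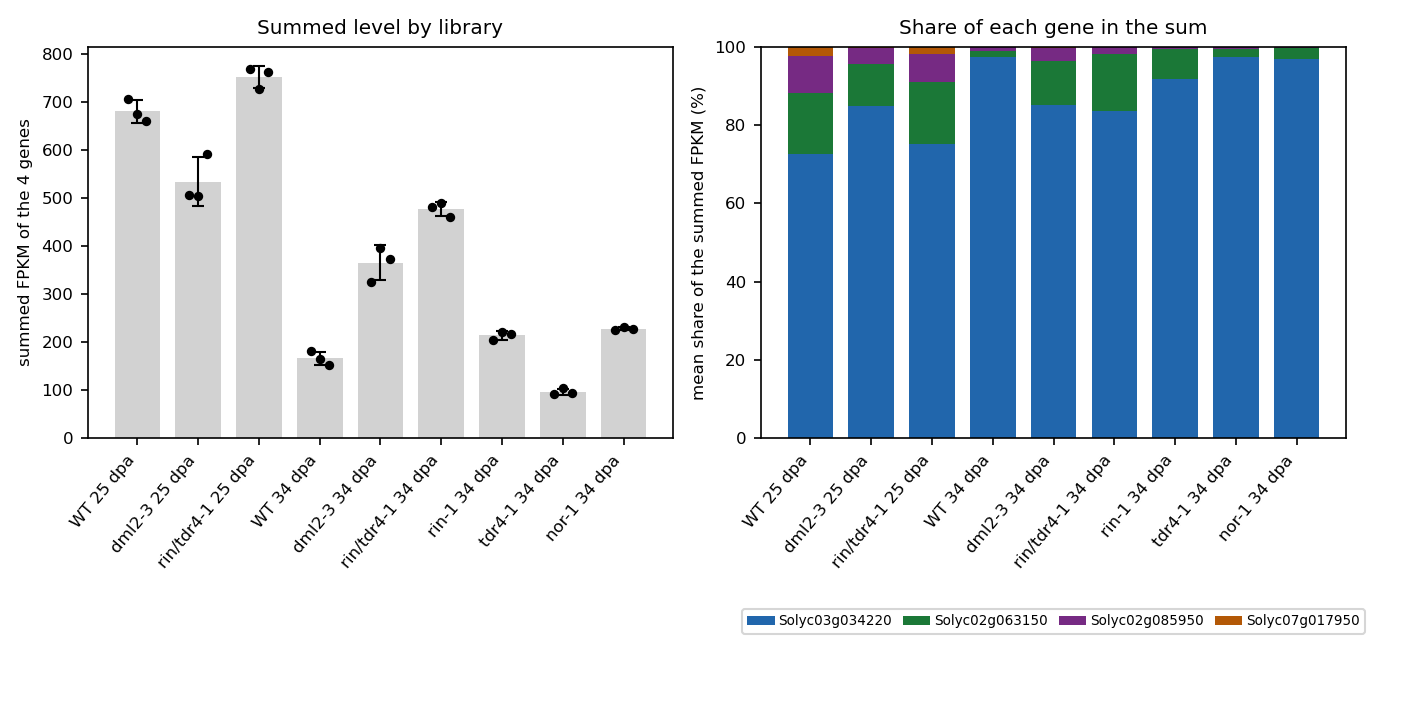
Left, the summed FPKM of the 4 genes in each library (points) with group mean (bar) and SD (n = 3); right, the mean share of each gene in that sum (%). The sum runs from 753 FPKM in rin/tdr4-1 at 25 dpa to 96.7 FPKM in tdr4-1, and the share of Solyc03g034220 runs from 72.5% in WT at 25 dpa to 97.5% in tdr4-1.

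The effect of dml2-3 before ripening was addressed at 25 dpa. Here 3 of the 4 genes were lower than in WT, in a comparison in which 27.8% of all tested genes were lower, with a median of -1.21 for the 4 genes and -0.00032 for all genes (-1.43 and 0.018 without replicate 3). Solyc02g085950 stood at 22.24, 23.74 and 23.22 FPKM, 2.74-fold below WT (-1.41, SE 0.14, limma adjusted p = 2.14e-08). Solyc07g017950 was listed at 0.49, 0.00 and 1.89 FPKM, far below every WT library (-3.39, SE 0.26, adjusted p = 4.42e-10). It passed the filter on low values through WT and rin/tdr4-1 at 25 dpa, where it is high, which favours a lower call here. Solyc03g034220 stood at 443.36, 444.43 and 469.83 FPKM, in part within the WT range, and was not called (-0.13, SE 0.073, adjusted p = 0.15). It was called lower as TPM, with libraries rescaled to a common sum (-0.17, adjusted p = 0.0367) and stood at 0.086 with quantile scaling (adjusted p = 0.274), within a range of 0.0367 to 0.604 over the alternatives.

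Solyc02g063150 split the dml2-3 libraries at 25 dpa. Replicates 1 and 2 stood at 40.16 and 37.55 FPKM, and replicate 3 at 97.84 FPKM, just below the lowest WT library. The difference from WT was -1.01 (SE 0.21, limma adjusted p = 0.000373). With replicates 1 and 2 only, it was -1.45 (adjusted p = 2.43e-11). With replicate 3 as the only dml2-3 library at 25 dpa, an alternative chosen after the data were seen that lets it vary like other groups, the difference was -0.14 (adjusted p = 0.395). The call also ended when no other groups lent their spread (adjusted p = 0.0973, with 2.43e-11 to 0.395 over the alternatives). For Solyc02g085950, by contrast, the value of replicate 3 lay between those of the other replicates, and without it the difference was -1.42. That of Solyc07g017950 was then -3.80 and that of Solyc03g034220 -0.15.

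In the double mutant at 25 dpa the small subunit genes were close to WT. Solyc02g063150 stood at 116.48, 115.35 and 126.80 FPKM, all above the WT libraries (0.15, SE 0.21, limma adjusted p = 0.636). Solyc02g085950 stood at 55.17, 51.43 and 56.13 FPKM (-0.21, SE 0.14, adjusted p = 0.256), and Solyc07g017950 at 15.34, 10.26 and 12.84 FPKM (-0.32, SE 0.26, adjusted p = 0.378). Both overlapped with WT. Solyc03g034220 was higher at 582.97, 549.80 and 567.47 FPKM (0.20, SE 0.073, adjusted p = 0.0418). This single call, set against 17.4% of all genes called higher, was 0.43 with quantile scaling and ended with size factors (0.20, adjusted p = 0.0710) and without any 1 of 5 of the 6 libraries compared (0.16 to 0.22). Its adjusted p ran from 2.34e-05 to 0.157 over the alternatives.

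At 34 dpa, dml2-3 fruit held higher levels of the 4 genes than WT. All 4 genes were higher than in WT at 34 dpa, against 57.0% of all genes, with a median of 1.68 for the 4 genes and 0.42 for all genes. Solyc02g063150 stood at 37.31, 40.76 and 44.75 FPKM, 15.2-fold above WT (3.51, SE 0.21, limma adjusted p = 1.71e-12). Solyc02g085950 stood at 10.54, 12.75 and 12.93 FPKM, 7.23-fold above WT (2.29, SE 0.14, adjusted p = 1.65e-12, and 1.45 with quantile scaling). Solyc03g034220 stood at 277.55, 342.30 and 314.79 FPKM, 1.93-fold above WT (0.94, SE 0.073, adjusted p = 1.27e-10, and 0.43 with size factors). Solyc07g017950 was listed at 0.91, 0.93 and 1.47 FPKM, where WT was listed at 0 (1.06, SE 0.26, adjusted p = 0.000778, and 3.56 with a pseudocount of 0.1).

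**Figure D3:**
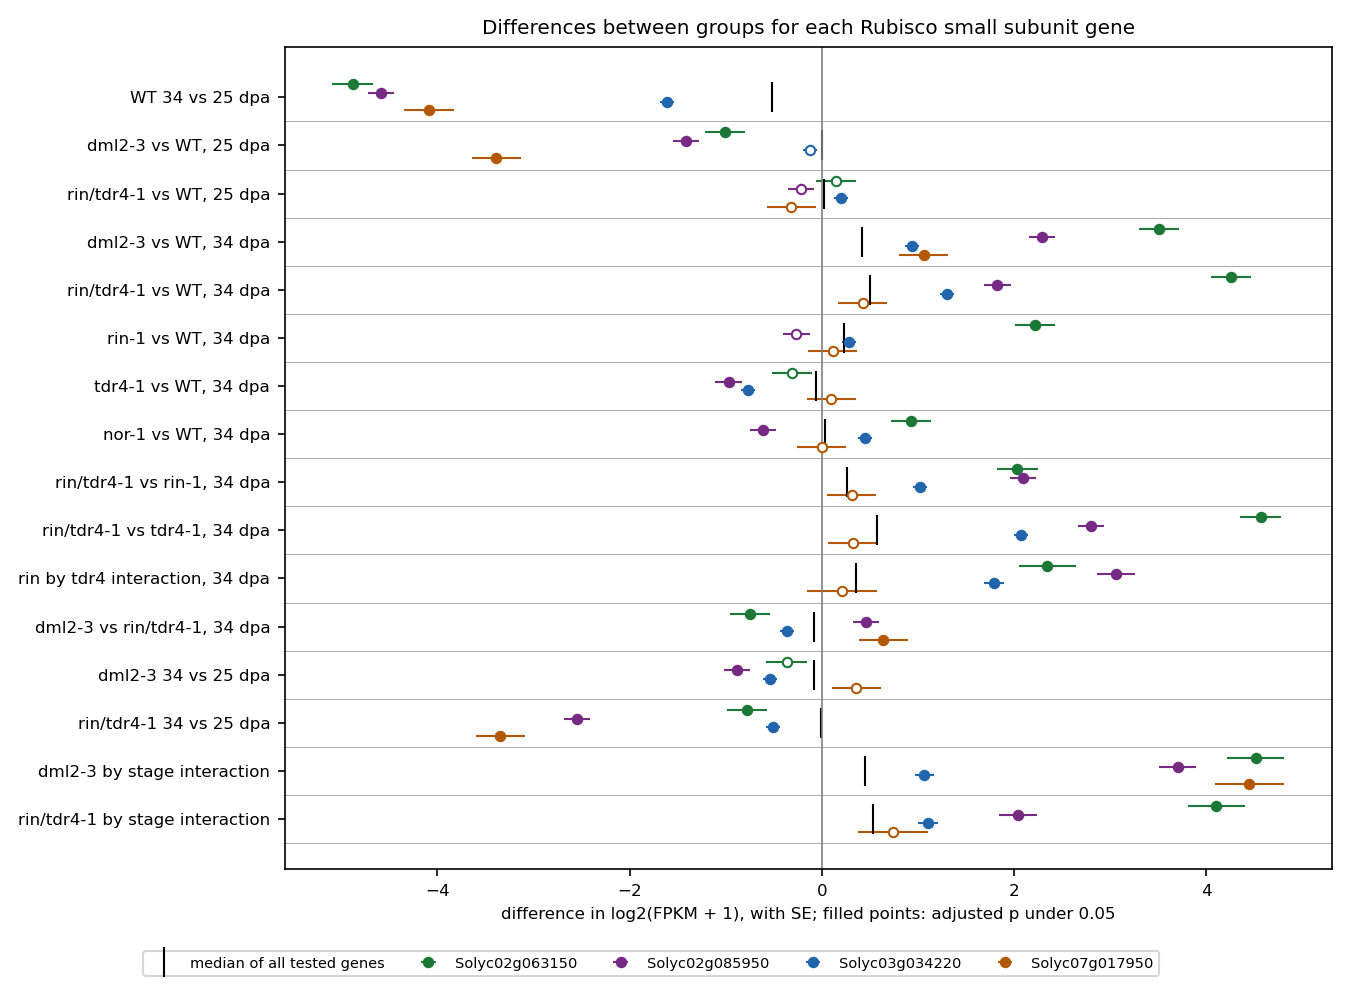
Difference in log2(FPKM + 1) with SE for each gene in each of 16 comparisons, filled where the limma adjusted p is under 0.05; the black tick is the median of all 18906 tested genes. The WT stage change lies farthest left, from -4.88 to -1.61, and Solyc02g063150 in rin/tdr4-1 lies far right of the median of all genes, at 4.26 against WT at 34 dpa.

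The double mutant at 34 dpa held the highest level of Solyc02g063150 and Solyc03g034220 among the 6 groups of that age. Solyc02g063150 stood at 67.53, 71.39 and 69.11 FPKM, 25.7-fold above WT (4.26, SE 0.21, limma adjusted p = 8.04e-14). Solyc03g034220 stood at 403.99, 411.29 and 382.65 FPKM, 2.47-fold above WT (1.30, SE 0.073, adjusted p = 6.44e-13, and 0.71 with size factors). Solyc02g085950 stood at 8.68, 7.39 and 9.39 FPKM, 5.08-fold above WT (1.83, SE 0.14, adjusted p = 8.75e-11, and 0.86 with quantile scaling). These 3 genes were called higher where 61.3% of all genes were, and their libraries did not overlap with WT. The median of the 4 genes was 1.56, and that of all genes 0.51.

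Solyc07g017950 was near 0 in the double mutant, listed at 0.59, 0.52 and 0.00 FPKM, and was not called against WT (0.42, SE 0.26, limma adjusted p = 0.136). It was called with a pseudocount of 0.1 (1.81, adjusted p = 0.0399), without replicate 3 of the double mutant at 34 dpa (0.64, adjusted p = 0.0416) and after removal of dml2-3 25 dpa replicate 3, a library outside this comparison that bears on the pooled spread (adjusted p = 0.0355). The alternatives gave it adjusted p-values between 0.0355 and 0.351.

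Set against each other at 34 dpa, dml2-3 and the double mutant differed in all 4 genes, 2 lower and 2 higher in dml2-3. Solyc02g063150 was lower in dml2-3 (-0.75, SE 0.21, limma adjusted p = 0.00409), as was Solyc03g034220 (-0.36, SE 0.073, adjusted p = 0.000208, and -0.24 as TPM), where 35.7% of all genes were lower. Solyc02g085950 was higher in dml2-3 (0.46, SE 0.14, adjusted p = 0.00607), where 25.1% of all genes were higher, and this call ended with a pseudocount of 0.1 (0.50, adjusted p = 0.0795, with 0.000719 to 0.0795 over the alternatives). Solyc07g017950 was higher by 0.64 (SE 0.26, adjusted p = 0.0359). That call was lost with a pseudocount of 0.1 (1.75, adjusted p = 0.0578), on leaving out dml2-3 34 dpa replicate 3 (0.52, adjusted p = 0.133) and without replicate 3 of the double mutant at 34 dpa (0.43, adjusted p = 0.194). Its adjusted p ran from 0.00368 to 0.194 over the alternatives.

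In rin-1, 1 member stood well above WT under every scaling run. Solyc02g063150 was at 15.53, 15.29 and 17.74 FPKM, 6.0-fold above WT at 34 dpa (2.22, SE 0.21, limma adjusted p = 5.2e-09), with no overlap. Solyc03g034220 stood at 187.20, 205.58 and 197.16 FPKM, also above the WT libraries (0.28, SE 0.073, adjusted p = 0.00165). That call did not survive another scaling, at -0.0074 with size factors (adjusted p = 0.949), 0.066 with quantile scaling (adjusted p = 0.382) and 0.15 as TPM (adjusted p = 0.0529), within a range of 0.000452 to 0.949. These 2 higher calls stand beside 46.2% of all genes, and the medians of the 4 genes and of all genes were 0.20 and 0.23.

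Solyc02g085950 was not called different in rin-1. It was listed at 1.61, 0.89 and 1.21 FPKM, overlapping with WT (-0.26, SE 0.14, limma adjusted p = 0.0947). It was called lower with size factors (-0.46, adjusted p = 0.0115), quantile scaling (-0.91, adjusted p = 1.68e-05) and as TPM (-0.33, adjusted p = 0.0327), and without replicate 1 of rin-1 (-0.38, adjusted p = 0.0274). Over the alternatives the adjusted p ran from 1.68e-05 to 0.39. Solyc07g017950 was listed at 0.27, 0.00 and 0.00 FPKM (0.11, SE 0.26, adjusted p = 0.714).

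In tdr4-1, 2 of the 4 genes were lower than in WT. Solyc03g034220 was at 90.16, 102.15 and 90.49 FPKM, 1.71-fold lower than WT at 34 dpa (-0.77, SE 0.073, limma adjusted p = 4e-08), the lowest of the 9 groups. Solyc02g085950 was at 0.29, 0.42 and 0.37 FPKM, 4.64-fold lower (-0.97, SE 0.14, limma adjusted p = 9.38e-06, and -1.95 with a pseudocount of 0.1). Its values were low in WT as well, at a mean of 1.67 FPKM, so the size of this fold is uncertain. Neither gene overlapped with WT, and 22.7% of all genes were called lower in this comparison. The medians of the 4 genes and of all genes were -0.54 and -0.059. Solyc02g063150 stood at 2.0, 1.67 and 2.26 FPKM, also below every WT library but not called (-0.31, SE 0.21, adjusted p = 0.273). With dml2-3 25 dpa replicate 3 removed from the pooled spread, its adjusted p was 0.00488, within a range of 0.00488 to 0.548. Solyc07g017950 was listed at 0.00, 0.08 and 0.14 FPKM (0.10, SE 0.26, adjusted p = 0.819).

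In nor-1, 2 of the 4 genes were called higher than in WT, and 1, with low values in both groups, was called lower. Solyc02g063150 was at 5.66, 6.48 and 5.91 FPKM, 2.23-fold above WT at 34 dpa (0.93, SE 0.21, limma adjusted p = 0.000626, and 0.59 with quantile scaling). Solyc03g034220 was at 218.40, 224.37 and 220.70 FPKM, 1.37-fold above WT (0.45, SE 0.073, adjusted p = 1.35e-05, and 0.29 with quantile scaling). Solyc02g085950 was at 1.16, 0.81 and 0.36 FPKM, 2.15-fold below WT (-0.61, SE 0.14, adjusted p = 0.000584, -1.12 with a pseudocount of 0.1 and -1.04 with quantile scaling). Higher calls made up 33.2% and lower calls 28.1% of all genes. The median was 0.036 over all genes and 0.23 over the 4 genes. Solyc07g017950 was listed at 0 in all 3 libraries, as in WT at 34 dpa.

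The joint effect of the MADS-box mutations was addressed by the double mutant against each single mutant at 34 dpa. Against rin-1, Solyc02g063150 was 4.28-fold higher (2.04, SE 0.21, limma adjusted p = 2.27e-08), Solyc02g085950 6.86-fold higher (2.09, SE 0.14, adjusted p = 1.57e-11) and Solyc03g034220 2.03-fold higher (1.02, SE 0.073, adjusted p = 6.58e-11). Against tdr4-1 the same genes were 35.1-fold (4.57, SE 0.21, adjusted p = 2.41e-14), 23.6-fold (2.80, SE 0.14, adjusted p = 6.78e-14, and 4.23 with a pseudocount of 0.1) and 4.24-fold higher (2.07, SE 0.073, adjusted p = 2.8e-16, and 1.38 with size factors). Libraries did not overlap in any of these. Higher calls made up 48.9% and 64.5% of all genes, and the medians of all genes were 0.26 and 0.57. Those of the 4 genes were 1.53 and 2.44. Solyc07g017950 was not called in either comparison (adjusted p = 0.288 and 0.249).

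The tdr4-1 mutation thus went with lower values of Solyc02g085950 and Solyc03g034220 beside functional RIN and with higher values in the rin background. The label of the double mutant does not number its rin allele, so whether it is that of rin-1 is unknown. A difference in rin allele and the addition of tdr4-1 cannot be told apart here, nor in the interaction term that follows. An interaction term measured how far the double mutant departs, on the log2 scale, from adding up both single-mutant differences. It was 2.35 for Solyc02g063150 (SE 0.30, limma adjusted p = 5.36e-07), 3.06 for Solyc02g085950 (SE 0.19, adjusted p = 1.19e-11) and 1.79 for Solyc03g034220 (SE 0.10, adjusted p = 2.41e-12). With a pseudocount of 0.1 the value of Solyc02g085950, whose levels were low in WT, rin-1 and tdr4-1, was 4.66. Such a positive departure was called in 47.8% of all genes, whose median was 0.36, beside 2.07 for the 4 genes. Solyc07g017950, near 0 in all 4 groups, was not called (0.21, SE 0.36, adjusted p = 0.625).

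The stage change within each mutant shows which members still fell. In dml2-3, 2 genes fell, where 21.8% of all genes did. Solyc02g085950 fell by 0.89 (SE 0.14, limma adjusted p = 3.94e-05) and Solyc03g034220 fell by 0.54 (SE 0.073, adjusted p = 7.09e-06), or by 0.35 as TPM. Without replicate 3 at 25 dpa they differed by -0.88 and -0.51. The median of the 4 genes was -0.45, and that of all genes -0.081 (-0.22 and -0.088 without that replicate). Solyc02g063150 differed by -0.37 (SE 0.21, adjusted p = 0.193), by 0.071 without replicate 3 at 25 dpa (adjusted p = 0.586), by -0.61 without replicate 2 at 25 dpa (adjusted p = 0.0318) and by -1.24 with replicate 3 as the only library of that age (adjusted p = 1.05e-07). Its stage change in this mutant therefore rested on which libraries were kept, with adjusted p from 1.05e-07 to 0.586. Solyc07g017950, near 0 at both ages, differed by 0.36 (SE 0.26, adjusted p = 0.299) and by 0.77 without replicate 3 at 25 dpa (adjusted p = 0.00338, with 0.00338 to 0.992 over the alternatives).

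In the double mutant all 4 genes fell from 25 to 34 dpa, where 30.1% of all genes did, with a median of -1.66 for the 4 genes and -0.0058 for all genes. Solyc02g063150 fell by 0.78 (SE 0.21, limma adjusted p = 0.00344) and Solyc03g034220 by 0.50 (SE 0.073, adjusted p = 5.3e-06). Solyc02g085950 fell by 2.55 (SE 0.14, adjusted p = 2.66e-12), and Solyc07g017950 fell by 3.35 (SE 0.26, adjusted p = 5.95e-10). With a pseudocount of 0.1 the latter was -5.19. Solyc07g017950 passed the filter on low values through WT and rin/tdr4-1 at 25 dpa, where it is high. Its fall was thus favoured by the filter, and the count and median of the 4 genes include it. Solyc02g063150 thus kept 58.0% of its mean level of 25 dpa and Solyc03g034220 70.5%, while Solyc02g085950 kept 15.6%.

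The difference of each mutant's stage change from that of WT was tested directly. For dml2-3 it was 4.52 for Solyc02g063150 (SE 0.30, limma adjusted p = 1.62e-11), 3.70 for Solyc02g085950 (SE 0.19, adjusted p = 3.87e-13) and 1.07 for Solyc03g034220 (SE 0.10, adjusted p = 7.5e-09). For Solyc07g017950 it was 4.45 (SE 0.36, adjusted p = 4.8e-10), but this gene was already near 0 in dml2-3 at 25 dpa and could not fall as it did in WT, so its value says nothing of a stage change in the mutant. With size factors the value of Solyc03g034220 was 0.56, and with a pseudocount of 0.1 that of Solyc07g017950 was 8.60. Without replicate 3 of dml2-3 at 25 dpa, the values of the 4 genes in the same order were 4.95, 3.71, 1.09 and 4.86. For rin/tdr4-1 it was 4.11 for Solyc02g063150 (SE 0.30, adjusted p = 9.38e-11), 2.04 for Solyc02g085950 (SE 0.19, adjusted p = 6.74e-09, and 1.02 with quantile scaling) and 1.11 for Solyc03g034220 (SE 0.10, adjusted p = 4.92e-09, and 0.51 with size factors). Positive calls made up 52.1% and 55.9% of all genes, and the medians of all genes were 0.45 and 0.53. Those of the 4 genes, Solyc07g017950 included, were 4.07 and 1.57 (4.28 for dml2-3 without that replicate, where the median of all genes was 0.41).

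For Solyc07g017950 the stage change of the double mutant differed from that of WT by 0.74 (SE 0.36, limma adjusted p = 0.073). It was called when the spread came from these 4 groups only (adjusted p = 0.0292), without replicate 3 of the double mutant at 34 dpa (0.95, adjusted p = 0.0265) and with dml2-3 25 dpa replicate 3 removed (adjusted p = 0.0123), within a range of 0.0123 to 0.169. Of the 4 genes it was the one whose level in the double mutant fell near to the level of WT, from 12.8 ± 2.54 FPKM to values listed between 0 and 0.59 FPKM.

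Within the summed level, the mutants at 34 dpa differed in make-up. The sum was 478 ± 15 FPKM in rin/tdr4-1, 366 ± 35.9 in dml2-3, 228 ± 3.33 in nor-1, 214 ± 8.74 in rin-1 and 96.7 ± 6.63 in tdr4-1. Solyc02g063150 supplied 14.5% ± 0.471 of the sum in rin/tdr4-1, 11.2% ± 0.866 in dml2-3, 7.56% ± 0.657 in rin-1, 2.64% ± 0.145 in nor-1 and 2.06% ± 0.42 in tdr4-1. Solyc02g085950 supplied 3.30% ± 0.136 in dml2-3, 1.78% ± 0.266 in rin/tdr4-1 and less than 1% in the single mutants. The log2 ratio of Solyc02g063150 to the other genes was higher than in WT at 34 dpa by 3.37 in rin/tdr4-1 (SE 0.21), 2.94 in dml2-3 (SE 0.22), 2.31 in rin-1 (SE 0.22) and 0.72 in nor-1 (SE 0.21), without overlap (two-sided exact permutation tests, p = 0.10 each). In tdr4-1 it overlapped with WT (0.34, SE 0.27, exact permutation p = 0.20).

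The ratio of both genes with Solyc02g identifiers is given as a description, without a test. Solyc02g063150 was 1.71 ± 0.17 times as high as Solyc02g085950 in WT at 25 dpa and 1.62 ± 0.215 times at 34 dpa. The ratio was 2.20 ± 0.081 in rin/tdr4-1 at 25 dpa and 8.27 ± 1.23 at 34 dpa, and 3.40 ± 0.18 in dml2-3 at 34 dpa. In rin-1 it was 13.8 ± 3.84, where Solyc02g085950 was near 1 FPKM. It was 9.77 ± 5.97 in nor-1 and 5.66 ± 1.51 in tdr4-1, where Solyc02g085950 was lower still. In dml2-3 at 25 dpa, whose libraries were split, it was 2.53 ± 1.46. The WT ratios at both ages lay within 1 SD of each other, at much lower levels of both genes at 34 dpa.

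**Figure D4:**
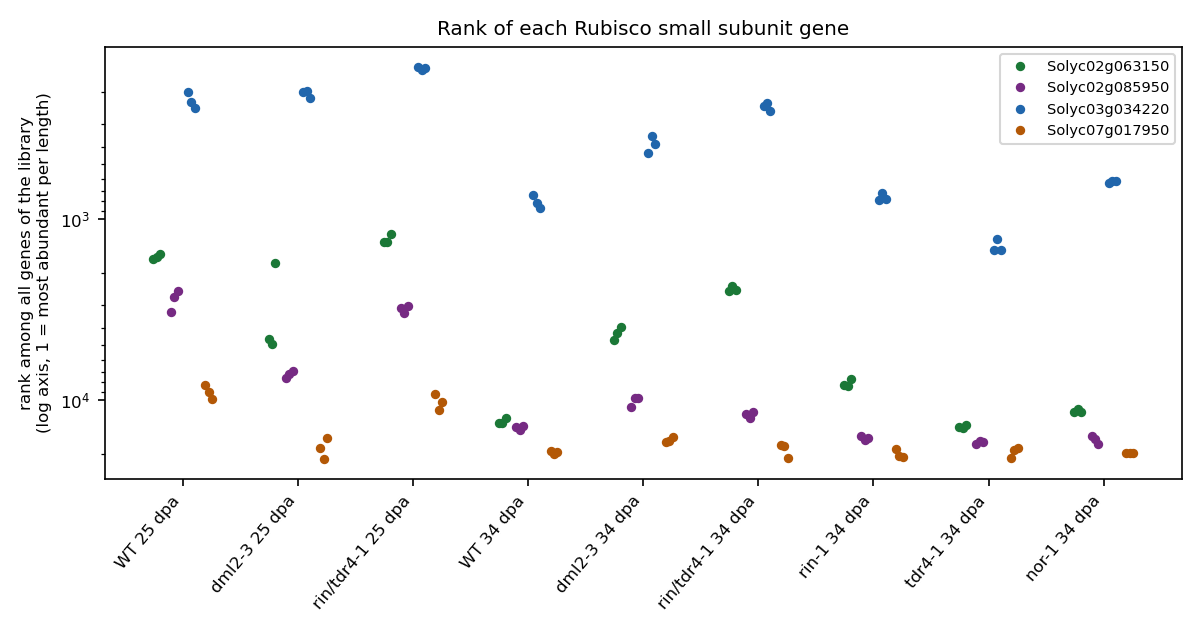
Rank of each gene among all 34075 genes of its library, 1 being the highest FPKM, on an inverted log axis; each point is a library, and genes listed at 0 share a tied rank. Solyc03g034220 stays within the first 1489 genes in every library, while Solyc02g063150 moves from about rank 1614 in WT at 25 dpa to rank 13369 at 34 dpa (medians).

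Ranks within a library are not altered by a common factor per library. The median rank of Solyc02g063150 was 2457 in rin/tdr4-1, 4285 in dml2-3, 8291 in rin-1, 11605 in nor-1 and 14069 in tdr4-1 at 34 dpa. Solyc03g034220 had median ranks of 239 in rin/tdr4-1, 385 in dml2-3, 618 in nor-1, 774 in rin-1, 818 in WT and 1483 in tdr4-1. Replicate 3 of dml2-3 at 25 dpa placed Solyc02g063150 at rank 1754, and the other 2 replicates placed it at 4633 and 4932.

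In the order of group means, neighbours were tested in the same fit. For Solyc02g063150 the order was rin/tdr4-1 and WT at 25 dpa, rin/tdr4-1 at 34 dpa, dml2-3 at 25 dpa, dml2-3 at 34 dpa, rin-1, nor-1, WT at 34 dpa and tdr4-1. Neighbours not called different were the first pair, rin/tdr4-1 at 34 dpa with dml2-3 at 25 dpa (limma adjusted p = 0.131), both ages of dml2-3, and WT with tdr4-1. The place of dml2-3 at 25 dpa rested on its replicate 3. Without that library its mean was 38.9 FPKM, below the 40.9 FPKM of dml2-3 at 34 dpa (log2 difference 0.071, adjusted p = 0.586). The double mutant at 34 dpa was then next above dml2-3 at 34 dpa, from which it differed (0.75, adjusted p = 1.14e-07), and WT was called above tdr4-1 at 34 dpa (0.31, adjusted p = 0.00488). For Solyc03g034220 the order was rin/tdr4-1, WT and dml2-3 at 25 dpa, then rin/tdr4-1, dml2-3, nor-1, rin-1, WT and tdr4-1 at 34 dpa. Here WT and dml2-3 at 25 dpa were not called different, nor were nor-1 and rin-1 (adjusted p = 0.0542). Without the same library nor-1 and rin-1 were called different (adjusted p = 0.0419), and dml2-3 at 25 dpa was no longer called above rin/tdr4-1 at 34 dpa (adjusted p = 0.101).

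For Solyc02g085950 the order was WT, rin/tdr4-1 and dml2-3 at 25 dpa, then dml2-3, rin/tdr4-1, WT, rin-1, nor-1 and tdr4-1 at 34 dpa, with WT and rin/tdr4-1 at 25 dpa, and WT and rin-1 at 34 dpa, not called different. For Solyc07g017950 only the step from rin/tdr4-1 at 25 dpa to dml2-3 at 34 dpa was called (2.71, SE 0.26, limma adjusted p = 9.33e-09), and WT and rin/tdr4-1 at 25 dpa lay above it. This gene passed the filter on low values through those groups, where it is high, which favours a call at this step. Without the same library dml2-3 at 25 dpa moved below rin/tdr4-1 at 34 dpa, and the step from dml2-3 to rin/tdr4-1 at 34 dpa was also called (adjusted p = 0.00368). In total 15 of the 32 neighbour pairs were not called, and 12 without that library, a setting chosen after seeing the data.

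Across the 27 libraries, which share their groups, log2 levels of Solyc02g063150 and Solyc03g034220 went together most closely (Pearson r = 0.943, Spearman rho = 0.949), and those of Solyc03g034220 and Solyc07g017950 least (r = 0.694, rho = 0.743). Among 13496 other genes with enough signal, the 2 most like the summed level of the 4 were Solyc07g041970 (r = 0.977, rho = 0.960) and Solyc01g106480 (r = 0.976, rho = 0.962). Solyc03g034220 supplied 72.5% to 97.5% of that sum by group mean, so the likeness is mainly to this member. Solyc07g041970 went from 76.9 ± 6.67 FPKM in WT at 25 dpa to 15.7 ± 1.04 FPKM at 34 dpa, and stood at 44.7 ± 2.38 FPKM in rin/tdr4-1 and 10.6 ± 0.599 FPKM in tdr4-1 at 34 dpa. The files do not pair either identifier with a name.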

How the data were processed

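The authors deposited FPKM values in a single table, in which each library has its own column. The submitters' processing notes list DESeq2, RSEM, STAR 2.5.4b and Trimmomatic, with no statement of what each did. Build, annotation and further scaling: not given in the sources used here. Low values showed no steps of single reads (at most 2.11% of low genes at 1 ratio to the first library), so no count test was used. No 2 libraries were identical (0 pairs).

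A gene entered the tests if 3 or more libraries reached 1 FPKM, which 18906 of 34075 genes and all 4 members did. On log2(FPKM + 1), limma 3.58.1 in R 4.3.3 fitted 1 mean per group to all 27 libraries, with a variance trend, and 16 contrasts were called at an adjusted p under 0.05. The fit was tested on simulated data. Shares were tested with scipy 1.17.1. Alternatives were a pseudocount of 0.1, other filters, size factors, quantile scaling, TPM (columns rescaled to a common sum), a fit to the groups compared, a replicate block and leaving out libraries.

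The members and lists were chosen with earlier results of these data known. Named beside the members were the 2 genes most correlated with their sum, with a mean of at least 10 FPKM in their highest group. Lists of other Calvin cycle genes and of tissue markers could not be filled, because 0 identifiers matched the 41476 genes of the reference table, and are not reported. Sequences of the 4 genes were not used here.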

Additional observations from a re-analysis of the deposited data

Results flagged for a closer look

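Of 12 tests of whether an effect differed between backgrounds, run on the 4 genes, 10 were positive with an adjusted p under 0.05 (limma, adjusted over all genes). Such positive calls were common, at 52.1% of all genes for the stage change of dml2-3, 55.9% for that of rin/tdr4-1 and 47.8% for the combination of rin and tdr4-1. The change from 25 to 34 dpa differed from that of WT in dml2-3 by 4.52 for Solyc02g063150, 3.70 for Solyc02g085950, 1.07 for Solyc03g034220 and 4.45 for Solyc07g017950 on the log2 scale. The last value is counted among the 10 but carries no information on a stage change in dml2-3. Solyc07g017950 was already near 0 in this mutant at 25 dpa and had no room to fall. In rin/tdr4-1 it differed by 4.11, 2.04 and 1.11 for the first 3 of these genes. The effect of tdr4-1 differed between the rin background and functional RIN by 2.35 for Solyc02g063150, 3.06 for Solyc02g085950 and 1.79 for Solyc03g034220. That reading takes the double mutant to carry the rin allele of rin-1, which its label does not state. The stage differences share the WT libraries and are not independent. Single libraries were not screened by a test within groups, since groups of 3 are too small for it. Replicate 3 of dml2-3 at 25 dpa was set apart by its lower correlation with its group.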

How the results depend on the processing

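Among the member counts, dml2-3 against rin/tdr4-1 at 34 dpa went from 4 called to 2 with a pseudocount of 0.1. The count for rin/tdr4-1 against WT at 25 dpa went from 1 to 0 with size factors, and ran from 0 to 1 when single libraries were left out. Direction turned in 4 values. Solyc03g034220 was -0.0074 in rin-1 against WT with size factors, and 0.086 in dml2-3 against WT at 25 dpa with quantile scaling. For the stage change of dml2-3, Solyc02g063150 ran from -0.61 to 0.071 over fits that left out single libraries, and Solyc07g017950 was -0.47 with replicates 1 and 2 of 25 dpa left out together. That last setting was chosen after seeing the data. The causes were not tested.

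Replicate numbers did not pair the libraries: in 13 comparisons, correlations of same-numbered deviations ran from -0.173 to 0.139, and in 0 were all pairs over 0.1. With the replicate number as a block, the call was kept in 64 of 64 results. A filter at a mean of 5 FPKM removed Solyc07g017950, so that its 16 values are not given there. Sequencing depth is unknown, so values near 0 carry no counting limit.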

Other observations

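Rows next to the 4 genes in identifier order, up to 2 on each side, comprised 16 genes. Of these, 8 passed the filter on low values, 5 were listed at 0 in all 27 libraries, and the highest value among all 16 was 94.8 FPKM. Solyc03g034230, next to Solyc03g034220, stood at 8.26 FPKM in WT at 25 dpa and 0.173 FPKM at 34 dpa, and reached 31.3 FPKM in the library where it was highest. It was singled out after its values were seen.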
